A study of Mus musculus with 18 samples.

Results

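Promoter accessibility of the ErbB receptor family and its ligands was described in the mouse central amygdala (CeA) and cortex. The members were the 4 receptor genes Erbb4, Egfr, Erbb2 and Erbb3, the neuregulin genes Nrg1, Nrg2, Nrg3 and Nrg4, and the ligand genes Btc and Hbegf. They were chosen by gene name as members of 1 signalling family, with earlier results of these data known. Each of the 10 genes had 1 promoter window in the deposited table, so the family took up 10 of 26065 windows. The assay was ATAC-seq, in which the transposase Tn5 cuts open DNA, and the value of a window is the number of reads within 1 kb of a transcription start.

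All 18 libraries held 50000 sorted nuclei from C57BL/6J mice aged 2 to 3 months, and they fall into 8 groups. Somatostatin-positive (SOM+) nuclei of SOMH2B-GFP mice, genotype WT, were gated on GFP. CeA and cortex were each taken from control and from fear-conditioned animals, with 2 libraries in each of these 4 groups. The protocol names the cortical tissue as prefrontal. Bulk nuclei, sorted on a DNA dye alone, came from animals of the SOMErbb4-KO line, treatment Control. Of these, 3 libraries in each region are KO, with Erbb4 knocked out in SOM+ cells, and 2 are WT. The genotype field of the bulk WT libraries carries the KO entry, so WT rests on their titles, and which alleles or drivers the WT animals carried is not given in the sources used here. The deleted part of Erbb4 and the driver of the deletion are not given either, so the promoter window of Erbb4 checks nothing about the deletion. The sorting protocol speaks of technical replicates, and nothing says that replicate libraries came from separate mice. The p-values therefore rest on the spread between libraries, which cannot be read as that between mice. It was estimated jointly over groups and windows, and not from the libraries of a single gene alone.

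ErbB receptors are tyrosine kinases of the cell surface that signal as pairs. ErbB4 and ErbB3 bind neuregulins, EGFR binds EGF-type ligands, ErbB2 binds no ligand and serves as a partner, and ErbB3 has little kinase activity of its own. Betacellulin and HB-EGF, encoded by Btc and Hbegf, can bind both EGFR and ErbB4. In the brain ErbB4 is known from inhibitory interneurons, where neuregulin from other neurons acts on synapse formation, whereas EGFR is known from progenitors and glia and ErbB3 from the oligodendrocyte lineage.

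The start regions of the 6 members with a matched sequence are unlike in base composition. Those of 5 members are printed here because they bracket the range of these 6 from few to many CpG sites. RefSeq promoter sequences in build GRCm38.p6, from 250 bases before to 50 bases after the start, were matched for 6 of 10 members (Erbb4, Egfr, Erbb2, Nrg3, Nrg4 and Btc). Capitals mark each CpG, a C followed by a G, the site of DNA methylation.
Btc (chr5:91402945-91403244, minus strand): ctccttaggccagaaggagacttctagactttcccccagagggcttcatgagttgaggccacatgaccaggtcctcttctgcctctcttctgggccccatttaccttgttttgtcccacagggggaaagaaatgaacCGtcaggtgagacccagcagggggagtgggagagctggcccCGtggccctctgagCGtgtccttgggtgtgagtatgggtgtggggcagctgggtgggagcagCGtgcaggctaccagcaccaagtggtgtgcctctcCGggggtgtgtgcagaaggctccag
Nrg4 (chr9:55283576-55283875, minus strand): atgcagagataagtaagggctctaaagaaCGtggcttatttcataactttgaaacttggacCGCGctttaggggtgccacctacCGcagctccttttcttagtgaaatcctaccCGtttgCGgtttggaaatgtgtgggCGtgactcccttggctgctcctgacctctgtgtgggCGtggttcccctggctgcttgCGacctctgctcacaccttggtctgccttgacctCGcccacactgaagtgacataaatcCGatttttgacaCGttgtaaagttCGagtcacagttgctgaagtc
Egfr (chr11:16751953-16752252, plus strand): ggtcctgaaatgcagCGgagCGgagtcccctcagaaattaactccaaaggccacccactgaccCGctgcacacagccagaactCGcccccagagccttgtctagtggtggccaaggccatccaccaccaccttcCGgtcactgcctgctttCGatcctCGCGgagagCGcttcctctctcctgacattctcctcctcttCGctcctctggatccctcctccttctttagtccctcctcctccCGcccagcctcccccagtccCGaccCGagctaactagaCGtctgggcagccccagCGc
Erbb4 (chr1:69108010-69108309, minus strand): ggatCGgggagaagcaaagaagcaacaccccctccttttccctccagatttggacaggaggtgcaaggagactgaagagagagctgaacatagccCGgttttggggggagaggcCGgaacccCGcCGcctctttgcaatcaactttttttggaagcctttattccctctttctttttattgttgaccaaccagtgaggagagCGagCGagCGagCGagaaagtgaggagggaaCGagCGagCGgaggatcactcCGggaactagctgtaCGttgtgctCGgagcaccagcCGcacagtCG
Nrg3 (chr14:39473039-39473338, minus strand): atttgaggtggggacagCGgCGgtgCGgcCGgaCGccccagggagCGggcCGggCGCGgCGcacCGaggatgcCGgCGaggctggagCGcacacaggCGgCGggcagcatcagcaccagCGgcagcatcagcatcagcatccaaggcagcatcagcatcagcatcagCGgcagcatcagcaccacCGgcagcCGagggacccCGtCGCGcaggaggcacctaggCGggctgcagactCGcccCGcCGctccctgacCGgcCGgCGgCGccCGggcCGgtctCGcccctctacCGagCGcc
Btc had 5 CpG, Nrg4 13, Egfr 15, Erbb4 17, Erbb2 21 and Nrg3 36, where the median of 32841 such promoters was 7. Btc was the member under that median, at percentile 38.0, and Nrg3 was at percentile 93.8. GC content ran from 51.0% in Nrg4 to 74.3% in Nrg3, against a median of 52.7%. A GC box (GGGCGG on either strand) was found once, in Egfr, and 35.7% of all promoters of this length hold one. The E-box CANNTG occurred 4 times in Btc, once each in Nrg4 and Erbb2 and not in Erbb4, Egfr or Nrg3, and 72.3% of all promoters hold one. The deposited windows are in build mm9 and coordinates were not converted, so how these sequences sit within the windows was not checked.

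Each window spanned 2000 bases in mm9, so levels of different members are per equal length, with no correction for GC content or mappability. Those of the receptors lay on chromosome 1 from 69153634 to 69155633 (Erbb4), chromosome 11 from 16651206 to 16653205 (Egfr) and from 98272798 to 98274797 (Erbb2), and chromosome 10 from 128025558 to 128027557 (Erbb3). The neuregulin windows lay on chromosome 8 from 33027676 to 33029675 (Nrg1), chromosome 18 from 36355815 to 36357814 (Nrg2), chromosome 14 from 40285377 to 40287376 (Nrg3) and chromosome 9 from 55130433 to 55132432 (Nrg4). Btc was on chromosome 5 from 91831021 to 91833020 and Hbegf on chromosome 18 from 36674460 to 36676459. The Nrg3 window shares bases, and so reads, with the window of the predicted gene LOC432842, whose start is 660 bases away. The other 9 overlapped none. Nrg2 and Hbegf are neighbours, with starts 318645 bases apart, whereas the nearest window to Erbb4 is that of Ikzf2 at 577901 bases. Nrg1 is known for several alternative promoters, which a single window does not cover.

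Levels below are CPM, promoter counts scaled to a common library total with TMM factors. A difference is a log2 fold change with a standard error derived from its test statistic. Confidence intervals are for a single gene, without adjustment for the other windows. Promoter counts per library ran from 2648959 to 14668694, so a count of 0 allows up to 1.13 CPM in the shallowest library and 0.205 CPM in the deepest, from counting error alone. The labelled sex went against Y-linked promoters in 4 of 10 bulk libraries. KO replicate 2 of each region, labelled male, had 0 Y-linked counts, and WT replicate 1 of each region, labelled female, had 43.2 CPM in CeA and 99.4 CPM in cortex. An exchange of these KO and WT samples would leave the same pattern as wrong sex labels, and the 2 cannot be told apart here. The KO or WT assignment of these 4 libraries is therefore uncertain. All 8 SOM+ libraries matched their labels, which are male for replicate 1 and female for replicate 2 in every SOM+ group. Sex and replicate number therefore cannot be told apart in SOM+ nuclei. Calls of members that rest on the 4 bulk libraries at odds with their labelled sex are given with and without them. Levels and shares are given for all libraries.

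The sort was checked with marker lists. GABAergic neuron promoters (8 genes) summed to 549 to 690.2 CPM in SOM+ libraries, against 403 to 599.6 in CeA bulk and 166 to 190.1 in cortex bulk. The somatostatin neuron list (13 genes) was higher in SOM+ nuclei of cortex, at 505 to 558 CPM against 259 to 380.1 in bulk, but not in CeA, at 238 to 262 against 267 to 316. Of its genes, 7 of 13 were called higher and 4 lower in SOM+ control than in bulk WT nuclei of cortex, and 1 higher and 4 lower in CeA. Markers of other interneurons (10 genes) had 3 higher and 5 lower in cortex and 1 higher and 3 lower in CeA. The Sst promoter overlapped between the sorts in CeA, with 11.6 and 26.4 CPM in SOM+ control and 19.9 and 21.5 CPM in bulk WT. Oligodendrocyte promoters (12 genes) summed to 124 to 137 CPM in SOM+ and 233 to 366 in bulk, astrocyte promoters (12 genes) to 144 to 197 and 239 to 400.4, and glutamatergic promoters (12 genes) to 218 to 291 and 307 to 763. The ratio of the median ribosomal protein promoter to the median olfactory receptor promoter, a measure of how far open windows stand above closed ones, was 17.2 to 69.1 in SOM+ and 9.23 to 17.6 in bulk libraries. The oligodendrocyte, astrocyte and glutamatergic sums separated SOM+ from bulk libraries in both regions and the ratio separated them in cortex, and their part in the differences below was not tested. In bulk nuclei, fewer nuclei of a type and a less open promoter in each nucleus cannot be told apart.

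The family was divided between the sorts. With SOM+ control set against bulk WT by CPM, Nrg2 was higher in both regions and Hbegf was higher in cortex, while Erbb4, Egfr and Btc were lower in both regions. In CeA, 4 of 10 members were called (adjusted p under 0.05 in edgeR's quasi-likelihood test over all windows), 1 higher and 3 lower. The background there was 23.2% of 25246 windows called, 13.7% higher and 9.58% lower. In cortex, 7 of 10 were called, 2 higher and 5 lower, against a background of 62.1% called, 31.5% higher and 30.6% lower. The share of members called in cortex is thus close to that of all windows. With the 4 libraries at odds with their labelled sex left out, which leaves 1 bulk WT library in each region, and with no sex term (the setting meant below wherever these libraries are left out), 2 members were called in CeA and 7 in cortex, and the background fell to 7.72% and 51.6%. The median difference of the 10 members was 0.04 in CeA and -0.37 in cortex, against -0.06 and -0.07 over all windows. Mouse line, sort and preparation differ together between SOM+ and bulk nuclei and cannot be told apart. The SOM+ control and bulk WT libraries enter several of the comparisons below, which are therefore not independent.

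**Figure D1:**
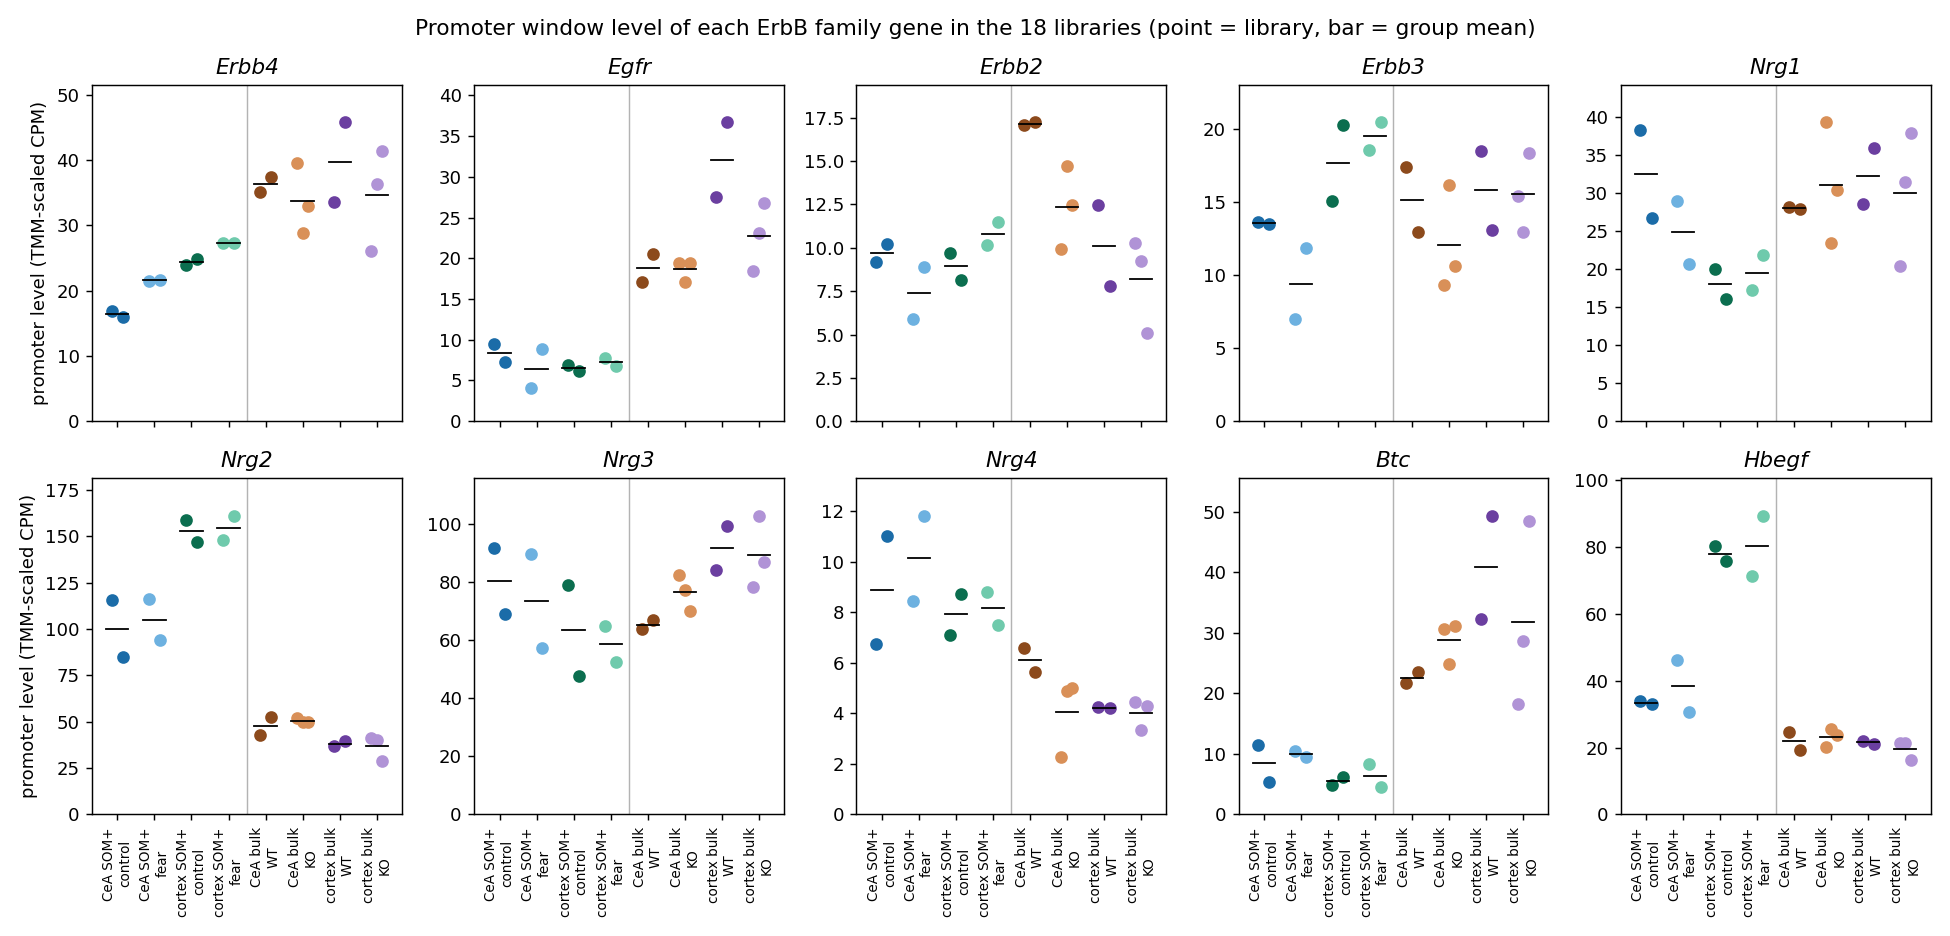
Promoter level (TMM-scaled CPM, linear axis from 0) of each of the 10 genes in the 18 libraries; each point is 1 library, each bar a group mean, and the grey line parts SOM+ from bulk groups. Nrg2 and Hbegf lie higher in SOM+ libraries, Egfr and Btc higher in bulk libraries, and Erbb2 and Erbb3 overlap between the sorts.

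**Figure D2:**
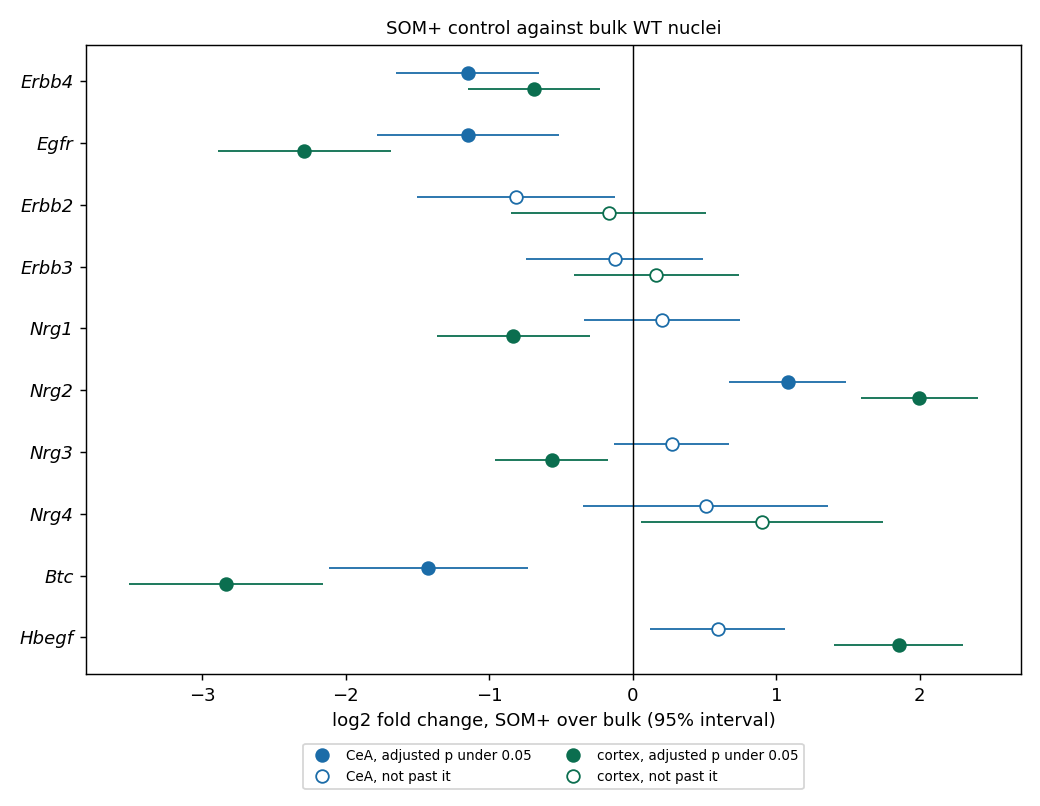
Log2 fold change of SOM+ control over bulk WT nuclei for each gene, with its 95% confidence interval, in CeA (blue) and cortex (green); filled points passed an adjusted p of 0.05. Nrg2 is at 1.08 in CeA and 2.00 in cortex, and Btc at -1.42 and -2.83.

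Erbb4, the neuregulin receptor of interneurons, had 16.8 and 15.9 CPM in the CeA SOM+ control libraries and 21.5 and 21.7 CPM in the fear-conditioned ones. Cortex SOM+ libraries had 23.9 and 24.9 CPM (control) and 27.3 and 27.2 CPM (fear). All SOM+ values of cortex thus lay above those of CeA. In CeA bulk nuclei the level was 35.2 and 37.5 CPM in WT and 39.6, 28.8 and 32.9 CPM in KO libraries. Cortex bulk libraries had 33.6 and 45.8 CPM (WT) and 26.0, 36.3 and 41.4 CPM (KO). Bulk WT libraries lay above every SOM+ library, and the single bulk value inside the SOM+ range was the lowest KO library of cortex. SOM+ control nuclei were lower than bulk WT nuclei, at -1.15 ± 0.25 log2 in CeA (adjusted p = 0.000736) and -0.69 ± 0.23 in cortex (adjusted p = 0.00893). The cortex call was lost without cortex SOM+ control replicate 1 or cortex bulk WT replicate 2, with values from -0.90 to -0.46 and adjusted p up to 0.177 over the libraries left out in turn. Without the 4 libraries at odds with their labelled sex, and with no sex term, the values were -1.18 (adjusted p = 0.0212) and -0.96 (adjusted p = 0.00783). In rank among all windows, Erbb4 stood at percentile 49.2 in CeA SOM+ control and 53.1 in cortex SOM+ control, against 66.9 and 68.6 in bulk WT. Relative to each library's median olfactory receptor promoter, the order in cortex was opposite, at 18.5 and 21.1 times in SOM+ control and 7.367 and 13.56 in bulk WT. In CeA it was 6.947 and 7.375 against 7.379 and 11.3 times. Relative to the ribosomal protein median, cortex had 32.65% and 30.54% against 79.78% and 108%. The direction in cortex thus depends on the reference, and these ratios were not tested.

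Egfr, the receptor of EGF-type ligands, was the lowest receptor in SOM+ nuclei by group mean in each of the 4 SOM+ groups. Its level was 9.44 and 7.27 CPM in CeA SOM+ control and 4.04 and 8.88 CPM in CeA SOM+ fear libraries, and 6.90 and 6.14 and then 7.72 and 6.78 CPM in cortex. CeA bulk libraries had 17.1 and 20.6 CPM (WT) and 19.4, 17.1 and 19.5 CPM (KO), and cortex bulk libraries 27.5 and 36.7 CPM (WT) and 18.5, 23.1 and 26.8 CPM (KO). No SOM+ library reached the level of any bulk library. SOM+ control nuclei were lower, at -1.15 ± 0.31 log2 in CeA (adjusted p = 0.00695) and -2.29 ± 0.30 in cortex (adjusted p = 2.69e-08), a level 4.88 times higher in bulk cortex. The CeA call was lost without CeA SOM+ control replicate 2 or CeA bulk WT replicate 2, with values from -1.32 to -1.02 and adjusted p up to 0.0811 over the libraries left out in turn. It was also lost without the 4 libraries at odds with their labelled sex (-1.26, adjusted p = 0.0550), whereas the cortex value became -2.54 (adjusted p = 2.75e-06). The cortex call held with each library left out in turn (-2.47 to -2.09).

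Erbb2, the ligandless partner, and Erbb3, the neuregulin receptor of the oligodendrocyte lineage, were not called between the sorts in either region. Erbb2 had 9.19 and 10.2 CPM in CeA SOM+ control and 5.87 and 8.88 CPM in CeA SOM+ fear libraries, and 9.70 and 8.15 and then 10.1 and 11.5 CPM in cortex. CeA bulk libraries had 17.1 and 17.2 CPM (WT) and 9.93, 14.7 and 12.5 CPM (KO), and cortex bulk libraries 12.4 and 7.81 CPM (WT) and 10.3, 9.25 and 5.08 CPM (KO). The 2 WT libraries of CeA were the highest of all 18. The Erbb2 difference was -0.81 ± 0.34 log2 in CeA (95% confidence interval -1.50 to -0.12, adjusted p = 0.0787) and -0.17 ± 0.34 in cortex (-0.85 to 0.51, adjusted p = 0.679). Erbb3 had 13.7 and 13.5 CPM in CeA SOM+ control and 6.97 and 11.8 CPM in CeA SOM+ fear libraries, and 15.1 and 20.3 and then 18.6 and 20.5 CPM in cortex. CeA bulk libraries had 17.4 and 12.9 CPM (WT) and 9.32, 16.2 and 10.6 CPM (KO), and cortex bulk libraries 18.5 and 13.1 CPM (WT) and 15.4, 13.0 and 18.4 CPM (KO). SOM+ and bulk values of Erbb3 overlapped in both regions. Its difference was -0.13 ± 0.30 in CeA (-0.74 to 0.49) and 0.16 ± 0.29 in cortex (-0.41 to 0.74), so changes of about the size of the interval ends remain possible. The unlike course of Erbb3 and of the summed oligodendrocyte promoters, which were lower in SOM+ nuclei, was not tested as a difference. Erbb2, without the 4 libraries at odds with their labelled sex, was at -0.82 in CeA and 0.14 in cortex and Erbb3 at 0.08 and 0.38, and 0 of these values were called.

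Among the neuregulins, Nrg2 had the highest level of the family in every SOM+ group. CeA SOM+ libraries had 116 and 84.9 CPM (control) and 116 and 94.0 CPM (fear), and cortex SOM+ libraries 159 and 147 CPM (control) and 148 and 161 CPM (fear). Bulk libraries of CeA had 42.7 and 52.4 CPM (WT) and 51.8, 50.0 and 49.8 CPM (KO), and those of cortex 36.9 and 39.4 CPM (WT) and 41.4, 40.2 and 28.7 CPM (KO). The lowest SOM+ library lay above the highest bulk library in both regions. Nrg2 was higher in SOM+ control nuclei by 1.08 ± 0.20 log2 in CeA (adjusted p = 0.000164) and by 2.00 ± 0.20 in cortex (adjusted p = 1.58e-10), or 2.11-fold and 3.99-fold. Both calls held with each library left out in turn (0.91 to 1.23 in CeA, 1.95 to 2.05 in cortex). Without the 4 libraries at odds with their labelled sex the values were 0.95 (adjusted p = 0.0439) and 1.90 (adjusted p = 7.66e-06). By rank, Nrg2 stood at percentile 90.7 and 94.5 of all windows in CeA and cortex SOM+ control, against 75.2 and 67.6 in bulk WT.

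Nrg1, the neuregulin with the most isoforms, and Nrg3, a neuregulin largely of neurons that binds ErbB4, were lower in SOM+ nuclei of cortex and not called in CeA. Nrg1 had 38.3 and 26.7 CPM in CeA SOM+ control and 29.0 and 20.7 CPM in CeA SOM+ fear libraries, and 20.1 and 16.1 and then 17.2 and 21.8 CPM in cortex. CeA bulk libraries had 28.1 and 27.8 CPM (WT) and 39.3, 23.4 and 30.3 CPM (KO), and cortex bulk libraries 28.5 and 35.9 CPM (WT) and 20.4, 31.5 and 37.9 CPM (KO). In cortex the SOM+ control and WT libraries did not overlap, and in CeA they did. The Nrg1 difference was -0.83 ± 0.26 log2 in cortex (adjusted p = 0.00639) and 0.20 ± 0.27 in CeA (95% confidence interval -0.34 to 0.74, adjusted p = 0.627). The cortex call was lost without cortex SOM+ control replicate 2 or cortex bulk WT replicate 2, with values from -0.90 to -0.76 and adjusted p up to 0.0619 over the libraries left out in turn. Nrg3 had 91.9 and 69.2 CPM in CeA SOM+ control and 89.7 and 57.5 CPM in CeA SOM+ fear libraries, and 79.1 and 47.7 and then 65.1 and 52.5 CPM in cortex. CeA bulk libraries had 63.9 and 67.0 CPM (WT) and 82.6, 77.2 and 70.1 CPM (KO), and cortex bulk libraries 84.3 and 99.6 CPM (WT) and 78.4, 103 and 87.1 CPM (KO). It was the highest member in every bulk group by mean. SOM+ replicates of 1 group differed by more than 10 CPM in all 4 groups. In each of them replicate 1, labelled male, was higher than replicate 2, labelled female. The Nrg3 difference was -0.57 ± 0.19 in cortex (adjusted p = 0.0110) and 0.27 ± 0.20 in CeA (-0.13 to 0.67, adjusted p = 0.339). Relative to the median olfactory receptor promoter, both genes were higher in cortex SOM+ control than in bulk WT. Nrg1 was at 15.5 and 13.6 against 6.267 and 10.62 times, and Nrg3 at 61.17 and 40.4 against 18.5 and 29.5 times. Relative to the ribosomal protein median both were lower, so the direction in cortex depends on the reference, which was not tested. The cortex call of Nrg3 was lost without cortex SOM+ control replicate 2 or cortex bulk WT replicate 1, with values from -0.77 to -0.38 and adjusted p up to 0.211 over the libraries left out in turn. Without the 4 libraries at odds with their labelled sex, the cortex values were -1.04 for Nrg1 (adjusted p = 0.0109) and -0.71 for Nrg3 (adjusted p = 0.0400), while the Y-linked promoter level in place of the labelled sex ended the Nrg3 call (-0.44, adjusted p = 0.0884), as did keeping the labelled sex with these libraries left out (-0.50, adjusted p = 0.114).

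Nrg4, a neuregulin that binds ErbB4 and is best known as a secreted factor of fat tissue, had the lowest level of the family in all bulk groups. CeA SOM+ libraries had 6.76 and 11.0 CPM (control) and 8.44 and 11.8 CPM (fear), and cortex SOM+ libraries 7.12 and 8.74 CPM (control) and 8.81 and 7.52 CPM (fear). Bulk libraries of CeA had 6.57 and 5.64 CPM (WT) and 2.29, 4.90 and 5.02 CPM (KO), and those of cortex 4.25 and 4.22 CPM (WT) and 4.45, 3.36 and 4.30 CPM (KO). Every SOM+ library lay above every bulk library of its region, on raw counts of 36 to 113 in SOM+ and 15 to 40 in bulk libraries. The median olfactory receptor promoter, closed in brain, had 4.04 CPM in CeA and 3.97 CPM in cortex of bulk WT nuclei and 2.29 and 1.24 CPM in SOM+ control nuclei, so the bulk level of Nrg4 was near that of closed promoters. The difference was 0.51 ± 0.42 log2 in CeA (95% confidence interval -0.35 to 1.36, adjusted p = 0.404) and 0.90 ± 0.42 in cortex (0.06 to 1.74, adjusted p = 0.0572), neither called. In cortex it was called by DESeq2 (0.92, adjusted p = 0.0463) and by limma after cyclic loess (1.40, adjusted p = 0.00224). It was 0.64 in CeA without these 4 libraries (adjusted p = 0.544) and 0.85 in cortex (adjusted p = 0.199).

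Of the EGF-type ligands, Btc showed the largest fall of the 10 members in both regions. CeA SOM+ libraries had 11.5 and 5.39 CPM (control) and 10.5 and 9.53 CPM (fear), and cortex SOM+ libraries 4.85 and 6.26 CPM (control) and 8.27 and 4.56 CPM (fear). Bulk libraries of CeA had 21.7 and 23.5 CPM (WT) and 30.6, 24.9 and 31.1 CPM (KO), and those of cortex 32.3 and 49.4 CPM (WT) and 18.3, 28.6 and 48.4 CPM (KO). All 10 bulk libraries lay above all 8 SOM+ libraries, and the bulk libraries of cortex spread widely. SOM+ control nuclei were lower, at -1.42 ± 0.34 log2 in CeA (adjusted p = 0.00238) and -2.83 ± 0.34 in cortex (adjusted p = 3.50e-09), where the bulk level was 7.13 times higher. The CeA call was lost without CeA SOM+ control replicate 2 or CeA bulk WT replicate 1, with values from -1.92 to -1.13 and adjusted p up to 0.0722 over the libraries left out in turn. It was also lost without the 4 libraries at odds with their labelled sex (-1.40, adjusted p = 0.0531), whereas the cortex value was then -3.20 (adjusted p = 6.87e-07). The cortex call held with each library left out in turn (-3.31 to -2.40).

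Hbegf, which encodes a membrane-anchored ligand that is shed to bind EGFR or ErbB4, was higher in SOM+ nuclei of cortex. Cortex SOM+ libraries had 80.2 and 75.8 CPM (control) and 71.3 and 89.4 CPM (fear), and CeA SOM+ libraries 33.8 and 33.1 CPM (control) and 46.0 and 30.6 CPM (fear). Bulk libraries of cortex had 22.0 and 21.1 CPM (WT) and 21.2, 21.5 and 16.4 CPM (KO), and those of CeA 24.7 and 19.2 CPM (WT) and 20.3, 25.5 and 23.7 CPM (KO). The 4 cortex SOM+ libraries stood apart from the other 14, and CeA SOM+ libraries lay above every bulk library. The difference was 1.85 ± 0.22 log2 in cortex (adjusted p = 4.43e-09), or 3.61-fold, and 0.59 ± 0.23 in CeA (95% confidence interval 0.12 to 1.06, adjusted p = 0.0600), which was not called. The cortex call held with each library left out in turn (1.80 to 1.91), and was 1.83 without the 4 libraries at odds with their labelled sex (adjusted p = 1.52e-05), when the CeA value was 0.81 (adjusted p = 0.122).

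Whether the difference between sorts itself differed between the regions was tested as an interaction, the CeA difference minus the cortex difference. Of the 10 members, 6 were called, 4 higher and 2 lower, against a background of 24.7% of windows called, 9.46% higher and 15.2% lower. Egfr (1.14 ± 0.43 log2, adjusted p = 0.0476), Btc (1.41 ± 0.48, adjusted p = 0.0272), Nrg1 (1.03 ± 0.38, adjusted p = 0.0401) and Nrg3 (0.84 ± 0.28, adjusted p = 0.0239) were less reduced, or not reduced, in CeA SOM+ nuclei. Nrg2 (-0.92 ± 0.28, adjusted p = 0.0151) and Hbegf (-1.26 ± 0.32, adjusted p = 0.00348) were less raised there. Erbb4 was not called (-0.46 ± 0.34, 95% confidence interval -1.14 to 0.22, adjusted p = 0.327). These calls were not stable to single libraries. That of Hbegf was lost without CeA bulk WT replicate 1, with values from -1.45 to -1.02 and adjusted p up to 0.0665 over the libraries left out in turn. That of Nrg2 was lost without CeA SOM+ control replicate 2, cortex SOM+ control replicate 2, CeA bulk WT replicate 2 or cortex bulk WT replicate 2, with values from -1.09 to -0.77 and adjusted p up to 0.0897 over the libraries left out in turn. That of Btc was lost without CeA SOM+ control replicate 1, cortex SOM+ control replicate 1, CeA bulk WT replicate 2 or cortex bulk WT replicate 2, with values from 0.92 to 1.85 and adjusted p up to 0.311 over the libraries left out in turn. That of Nrg3 was lost without CeA SOM+ control replicate 1, CeA SOM+ control replicate 2, cortex SOM+ control replicate 2, CeA bulk WT replicate 2 or cortex bulk WT replicate 1, with values from 0.64 to 1.07 and adjusted p up to 0.168 over the libraries left out in turn. That of Nrg1 was lost without any of the 8 libraries except CeA SOM+ control replicate 2, and that of Egfr without any of the 8 (values from 0.82 to 1.20 and 0.95 to 1.33). Without the 4 libraries at odds with their labelled sex, 0 of 10 were called and the background was 9.54%, with values of 1.28 for Egfr, 1.80 for Btc, 1.29 for Nrg1, 0.99 for Nrg3, -0.95 for Nrg2 and -1.02 for Hbegf.

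The sorts also differed in how the family's reads were divided among its members. Among the reads of the 4 receptor windows, Erbb4 took 41.9% ± 6.79 in SOM+ (SD, n = 8) and 42.2% ± 4.41 in bulk libraries (n = 10). By group its share varied in CeA, at 34.3% and 33.9% in SOM+ control, 56.0% and 42.3% in SOM+ fear and 40.5% and 42.5% in bulk WT libraries. Egfr took 13.5% ± 3.46 in SOM+ and 26.5% ± 4.48 in bulk, and Erbb3 27.4% ± 4.89 and 17.2% ± 3.79. Among the reads of the 6 ligand windows, Nrg2 took 36.8% to 48.7% in SOM+ and 12.9% to 26.8% in bulk libraries. Nrg3 led in bulk with 38.3% ± 3.89, against 23.9% ± 6.25 in SOM+. Btc took 14.3% ± 3.76 in bulk and 2.67% ± 1.10 in SOM+ libraries. Hbegf took 24.2% ± 1.95 in cortex SOM+ and 13.7% ± 1.71 in CeA SOM+ libraries (n = 4 each), and 10.3% ± 1.82 in bulk. These shares are descriptions with no test, and the libraries of 2 regions and of both conditions are pooled in them.

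By level, the order in cortex SOM+ control was Nrg2 (153 ± 8.46 CPM, SD, n = 2), Hbegf (78.0 ± 3.12), Nrg3 (63.4 ± 22.2), Erbb4 (24.4 ± 0.690), Nrg1 (18.1 ± 2.83), Erbb3 (17.7 ± 3.69), Erbb2 (8.93 ± 1.10), Nrg4 (7.93 ± 1.15), Egfr (6.52 ± 0.538) and Btc (5.56 ± 0.994). The libraries of Hbegf and Nrg3 overlapped, as did those of Nrg1 and Erbb3, of Erbb2 and Nrg4, and of Egfr and Btc, and other neighbours in the order did not overlap. In cortex bulk WT the order was Nrg3 (91.9 ± 10.8 CPM), Btc (40.9 ± 12.0), Erbb4 (39.7 ± 8.64), Nrg2 (38.2 ± 1.81), Nrg1 (32.2 ± 5.17), Egfr (32.1 ± 6.52), Hbegf (21.6 ± 0.651), Erbb3 (15.8 ± 3.85), Erbb2 (10.1 ± 3.28) and Nrg4 (4.24 ± 0.0228). There, Btc, Erbb4 and Nrg2 overlapped, as did Nrg1 and Egfr. In CeA SOM+ control the order was Nrg2 (100.2 ± 21.8 CPM), Nrg3 (80.6, from 69.2 to 91.9), Hbegf (33.5 ± 0.487), Nrg1 (32.5 ± 8.22), Erbb4 (16.4 ± 0.674), Erbb3 (13.6 ± 0.132), Erbb2 (9.71 ± 0.740), Nrg4 (8.90 ± 3.03), Btc (8.44 ± 4.31) and Egfr (8.36 ± 1.54). Nrg2 and Nrg3 overlapped, as did Hbegf and Nrg1, and Erbb2 and the 3 below it. In CeA bulk WT it was Nrg3 (65.5 ± 2.14 CPM), Nrg2 (47.6 ± 6.82), Erbb4 (36.3 ± 1.62), Nrg1 (28.0 ± 0.182), Btc (22.6 ± 1.30), Hbegf (21.9 ± 3.84), Egfr (18.8 ± 2.45), Erbb2 (17.2 ± 0.103), Erbb3 (15.2 ± 3.18) and Nrg4 (6.11 ± 0.664), with overlap between neighbours from Btc to Erbb3.

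CeA and cortex differed within SOM+ nuclei, with control and fear libraries together (4 per region). Hbegf was lower in CeA, at -1.08 ± 0.15 log2 (adjusted p = 1.38e-11), and Erbb3 (-0.70 ± 0.20, adjusted p = 0.00138), Nrg2 (-0.53 ± 0.16, adjusted p = 0.00259) and Erbb4 (-0.41 ± 0.17, adjusted p = 0.0364) were lower there too, with no overlap of CeA and cortex libraries in any of these 4. Nrg1 (0.67 ± 0.17, adjusted p = 0.000280), Btc (0.69 ± 0.25, adjusted p = 0.0143) and Nrg3 (0.39 ± 0.15, adjusted p = 0.0209) were higher in CeA, with libraries that overlapped. In all, 7 of 10 members were called, 3 higher and 4 lower, against a background of 48.3% of 25157 windows called, 21.1% higher and 27.1% lower. Scaled by library totals, which moved the median of all windows from 0.04 to 0.26, 3 members were higher and 2 lower. With DESeq2, 4 were called (44.7% of windows), without Erbb4, Nrg3 and Btc, and with limma after cyclic loess 4 (42% of windows), without Erbb4, Nrg2 and Btc. Egfr (0.11, 95% confidence interval -0.40 to 0.62), Erbb2 (-0.19, -0.65 to 0.26) and Nrg4 (0.25, -0.22 to 0.71) were not called. The calls of Hbegf (-1.27 to -0.93), Nrg1 (0.51 to 0.85) and Nrg2 (-0.62 to -0.36) held with each of the 8 libraries left out. That of Erbb4 was lost without any one of the 8 (-0.41 to -0.32), and that of Erbb3 without cortex SOM+ control replicate 2 (-0.51, adjusted p = 0.0627). That of Nrg3 was lost without CeA SOM+ control replicate 1, CeA SOM+ fear replicate 1 or cortex SOM+ control replicate 2, with values from 0.19 to 0.67 and adjusted p up to 0.352 over the libraries left out in turn. That of Btc was lost without CeA SOM+ control replicate 1, CeA SOM+ fear replicate 1, cortex SOM+ control replicate 1 or cortex SOM+ fear replicate 2, with values from 0.37 to 0.95 and adjusted p up to 0.349 over the libraries left out in turn. Cortex SOM+ libraries stood further above closed promoters than CeA SOM+ libraries (ribosomal over olfactory median 50.4 to 69.1 against 17.2 to 34.3), and the part of this in the differences was not tested.

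**Figure D3:**
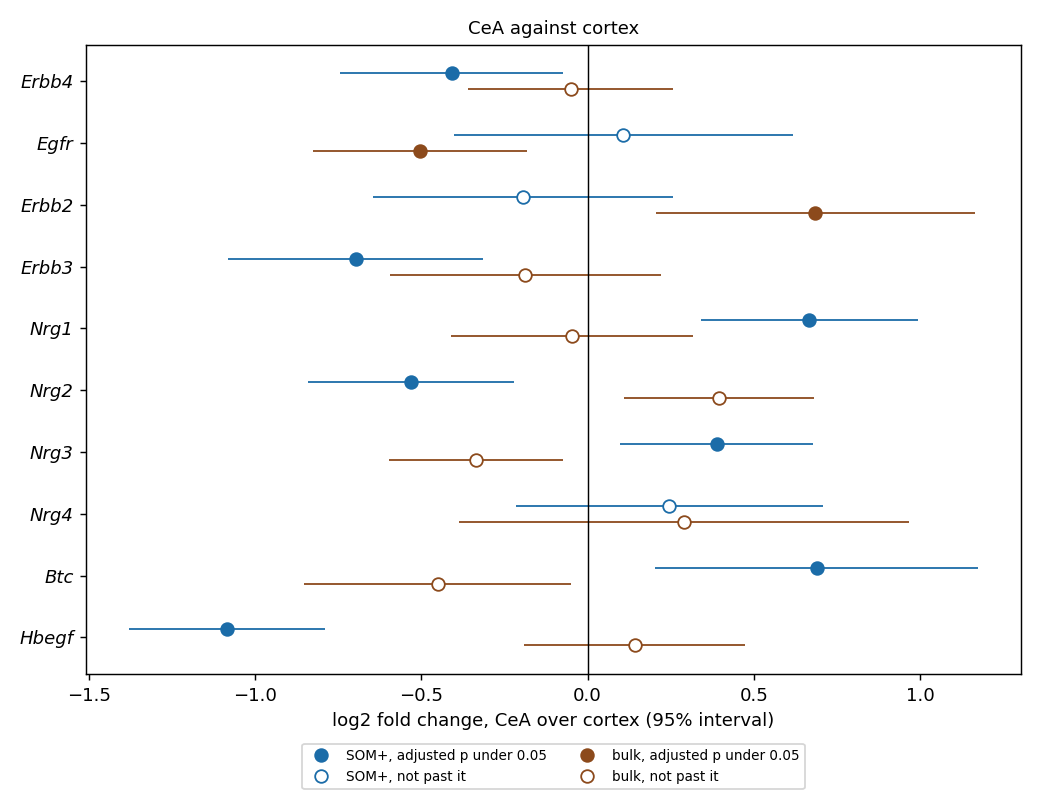
Log2 fold change of CeA over cortex for each gene with its 95% confidence interval, in SOM+ (blue) and bulk (brown) nuclei; filled points passed an adjusted p of 0.05. Hbegf is at -1.08 in SOM+ and 0.14 in bulk nuclei. Egfr, Erbb2, Nrg1, Nrg2, Nrg3 and Btc also lie on opposite sides of 0 in the 2 sorts, and Erbb4, Erbb3 and Nrg4 do not.

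In bulk nuclei, KO and WT together (5 libraries per region), 2 of 10 members were called between CeA and cortex, 1 higher and 1 lower, against a background of 16.9% of 25196 windows called, 6.9% higher and 9.98% lower. Egfr was lower in CeA, at -0.50 ± 0.15 log2 (adjusted p = 0.0300), and Erbb2 higher, at 0.68 ± 0.23 (adjusted p = 0.0458), and libraries of both regions overlapped for each gene. Nrg2 (0.39 ± 0.14, adjusted p = 0.0522) did not overlap but was not called in the main fit. It was called in the added fit with the replicate number as a block, described at the end. Scaled by library totals, Nrg2 (0.49, adjusted p = 0.0311) and Erbb2 were called higher and Egfr was not called, so the split became 2 higher and 0 lower. The Egfr call was lost without CeA bulk KO replicate 2, CeA bulk KO replicate 3, CeA bulk WT replicate 1, CeA bulk WT replicate 2, cortex bulk WT replicate 1 or cortex bulk WT replicate 2, with values from -0.60 to -0.47 and adjusted p up to 0.214 over the libraries left out in turn. The Erbb2 call was lost without CeA bulk KO replicate 2, CeA bulk KO replicate 3, CeA bulk WT replicate 1, CeA bulk WT replicate 2, cortex bulk KO replicate 2, cortex bulk KO replicate 3, cortex bulk WT replicate 1 or cortex bulk WT replicate 2, with values from 0.48 to 0.91 and adjusted p up to 0.397 over the libraries left out in turn. Without the 4 libraries at odds with their labelled sex, Egfr was at -0.48 (adjusted p = 0.417) and Erbb2 at 0.87 (adjusted p = 0.240). The glutamatergic promoter sum was 307 to 397 CPM in CeA bulk and 595 to 763 CPM in cortex bulk libraries, and the GABAergic sum 403 to 599.6 and 166 to 190.1. Their part in these differences was not tested.

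Fear conditioning left 0 of 10 members called in CeA, in cortex, over both regions and as a region difference, by edgeR, and 0 by DESeq2 and limma as well. The background was 0% of 25157 windows called in each of these comparisons, and 598, 288, 530 and 371 windows in the same order, with 0 of 10 members, had an unadjusted p under 0.05. Fewer windows passed that unadjusted threshold than it would let through if nothing differed. The tests may thus be conservative here, with intervals that are too wide, and the lack of calls does not show a lack of change. Erbb4 was higher in each fear library than in each control library of the same region, as were 1.55% of all windows, with 16.8 and 15.9 CPM against 21.5 and 21.7 in CeA and 23.9 and 24.9 against 27.3 and 27.2 in cortex. Its difference was 0.42 ± 0.26 log2 in CeA, 0.17 ± 0.23 in cortex and 0.29 ± 0.17 over both (95% confidence interval -0.04 to 0.63, adjusted p = 1.00), so a change of 0 is inside the interval and so is one of 0.63. Control and fear libraries also did not overlap for Erbb2 (lower in CeA, higher in cortex) and for Erbb3 in CeA (lower). In all, 3 of 10 members did not overlap in CeA and 2 of 10 in cortex, against 21.8% and 26.6% of all windows. Erbb3 was at -0.56 ± 0.30 in CeA (-1.16 to 0.03) and 0.15 ± 0.25 in cortex (-0.34 to 0.64), and the region difference of -0.71 had an adjusted p of 1.00. Over both regions the neuregulins lay between -0.12 (Nrg1) and 0.14 (Nrg4), Btc at 0.23 and Hbegf at 0.14. The narrowest interval was that of Nrg3 (-0.39 to 0.19) and the widest that of Egfr (-0.65 to 0.37).

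**Figure D4:**
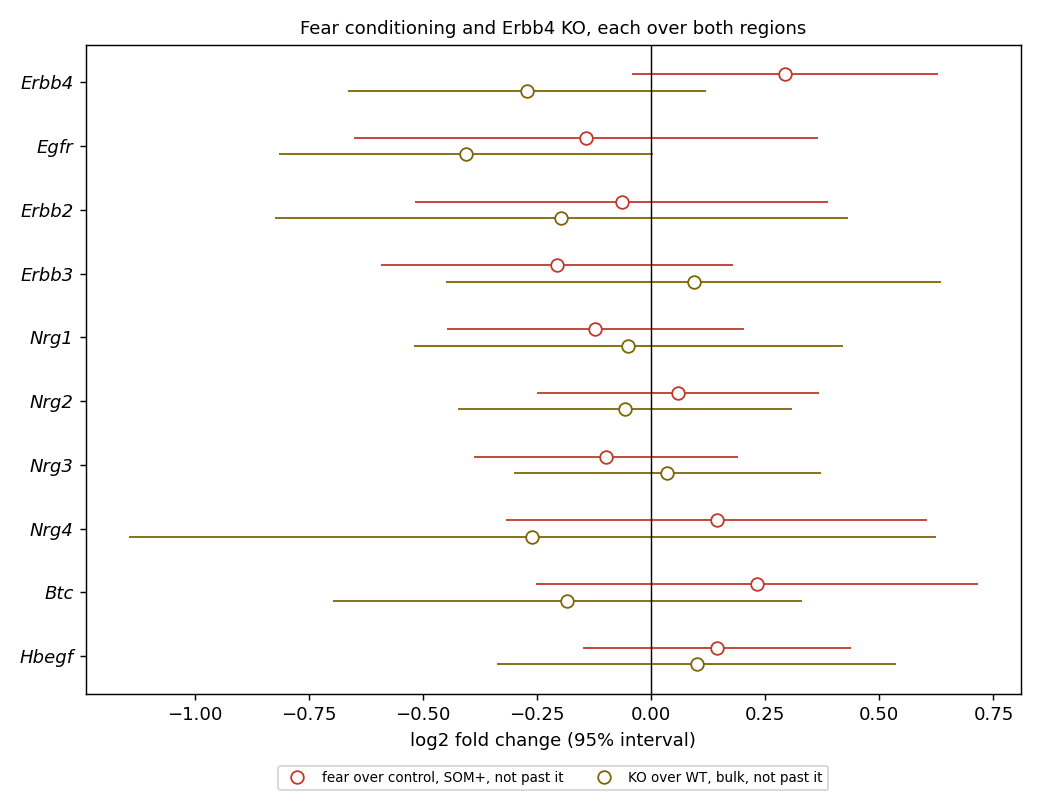
Log2 fold change over both regions with its 95% confidence interval, fear over control in SOM+ nuclei (red) and Erbb4 KO over WT in bulk nuclei (olive); open points did not pass an adjusted p of 0.05. All 20 points are open; Erbb4 is at 0.29 for fear and -0.27 for KO.

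Deletion of Erbb4 in SOM+ cells also left 0 of 10 members called in bulk nuclei, in CeA, in cortex, over both regions and as a region difference, by edgeR, DESeq2 and limma. The background was 0% of 25196 windows called each time, and 745, 823, 872 and 590 windows in the same order had an unadjusted p under 0.05. These counts were also fewer than that threshold would let through if nothing differed, so these tests may be conservative too. The Erbb4 window itself had 39.6, 28.8 and 32.9 CPM in KO against 35.2 and 37.5 in WT of CeA, and 26.0, 36.3 and 41.4 against 33.6 and 45.8 in cortex. KO and WT libraries overlapped in both regions. The difference was -0.27 ± 0.19 log2 over both regions (95% confidence interval -0.66 to 0.12), and -0.14 with no sex term and -0.25 without the 4 libraries at odds with their labelled sex. Bulk nuclei hold SOM+ and other cells together. Egfr was the 1 member with an unadjusted p under 0.05, in cortex, where every KO library (18.5, 23.1 and 26.8 CPM) lay below both WT libraries (27.5 and 36.7 CPM). It was the 1 of 10 members without overlap in cortex, where 10.9% of all windows had none, and in CeA, where 28.9% had none, these were Erbb2, Nrg3, Nrg4 and Btc. Its difference of -0.65 ± 0.24 had an adjusted p of 0.945, and was -0.49 with no sex term and -0.69 without the 4 libraries at odds with their labelled sex. Over both regions it was -0.41 ± 0.20 (95% confidence interval -0.81 to 0.00). In CeA, Egfr was at -0.16 ± 0.26, and the region difference was not called (0.49, adjusted p = 0.968). Btc was at -0.54 ± 0.30 in cortex, and without cortex bulk KO replicate 3, the highest of the KO libraries, it was called (-0.95, adjusted p = 0.0132), as were 985 of 25181 windows (3.91%) in that fit against 0 with this library. Btc was, without the 4 libraries at odds with their labelled sex, at -0.56 (adjusted p = 1.00). The other ligands lay between -0.26 (Nrg4) and 0.10 (Hbegf) over both regions, with intervals that held 0. All KO libraries are labelled male, so the fit with the labelled sex rests mainly on WT replicate 2 of each region. Whether KO replicate 2 and WT replicate 1 of each region carry the genotype of their titles is also uncertain.

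The wider pathway was followed with 57 other genes in 4 lists. Between SOM+ control and bulk WT nuclei, 16 of 57 were higher and 3 lower in CeA (median 0.28, all windows -0.06), and 35 higher and 10 lower in cortex (median 0.86, all windows -0.07). That is to be read against 13.7% of all windows higher and 9.58% lower in CeA, and 31.5% and 30.6% in cortex. With those 4 libraries at odds with their labelled sex left out, 6 were higher and 3 lower in CeA (4.49% and 3.23% of all windows), and 29 higher and 11 lower in cortex (26% and 25.7%). Ligand processing genes, which release ligands from the membrane, had 6 of 8 higher in both regions, with 0 lower in CeA and 1 in cortex. Adaptors and effectors had 8 of 31 higher and 0 lower in CeA, and 21 higher and 2 lower in cortex. Receptor partners and regulators had 2 of 13 higher and 0 lower in CeA, and 8 higher and 3 lower in cortex. Among other EGF-family ligands, 0 of 5 were higher and 3 lower in CeA, and 0 higher and 4 lower in cortex. Areg and Ereg of this list lie beside Btc and are counted again among its neighbours below, so the 2 counts are not separate. The counts by list without those 4 libraries in CeA were 1 of 8 ligand processing genes, 4 of 31 adaptors and effectors and 1 of 13 partners and regulators higher, and 3 of 5 other ligands lower.

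By the naming rule, those higher in CeA SOM+ nuclei were Itch (1.56), a ubiquitin ligase of ErbB4, the kinase Akt2 (1.55) and Nrd1 (1.23), a protease that enhances HB-EGF shedding. Those lower were the ligands Ereg (-2.07), Areg (-1.73) and Egf (-0.98). In cortex the adaptor Crk (2.06), the transcription factor Stat5b (2.44) and the adaptor Grb2 (1.89) were higher, and the ubiquitin ligases Wwp1 (-2.05) and Cblb (-1.93) and the ligand Areg (-2.36) were lower. Areg stood at 8.65 ± 1.04 CPM in SOM+ control and 44.4 ± 7.35 CPM in bulk WT nuclei of cortex (SD, n = 2 each), and Grb2 at 151 ± 17.2 and 40.5 ± 0.0254 CPM. Between CeA and cortex SOM+ nuclei, 6 of 57 were higher and 25 lower in CeA (median -0.29, all windows 0.04), against 21.1% and 27.1% of all windows. They were led by Gab1 (1.00), Yap1 (0.99) and Wwp1 (0.94) among those higher and Stat5b (-1.35), Shc1 (-1.30) and Rhbdf1 (-1.08) among those lower. In bulk nuclei 8 were higher and 4 lower in CeA, against 6.9% and 9.98% of all windows, and 0 without the 4 libraries at odds with their labelled sex. Among them were Erbb2ip, which binds ErbB2 (0.72), and Map2k1 (0.38), and on the lower side Rhbdf1 (-0.48) and Braf (-0.35). Fear conditioning and KO left 0 of 57 called.

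Windows within 500 kb were called in the direction of some members, to be read against 31.5% of all windows higher and 30.6% lower in cortex, and 13.7% and 9.58% in CeA. All 8 neighbours of Btc were lower in cortex SOM+ nuclei than in bulk WT (-2.47 to -1.58), and 5 of 8 in CeA. They include the ligand genes Areg (-2.36), Ereg (-2.19) and Epgn (-1.78), which lie with Btc in 1 cluster. All 9 neighbours of Egfr were lower in cortex (-2.06 to -0.52), where the nearest, Eldr, was at -1.34 and Plek, a gene of blood cells and microglia, at -2.06, and 0 of 9 were called in CeA. In cortex 17 of 20 neighbours of Nrg2 and 36 of 38 of Hbegf were higher, and in CeA 10 of 20 and 31 of 38, with 0 lower. Between Nrg2 and Hbegf lie Pura (1.50 in cortex), Igip (0.61, not called), Cystm1 (1.86) and Pfdn1 (2.02), and the 2 genes share many of these neighbours. Nrg2 and Hbegf are also counted as neighbours of each other, so their own calls enter these counts. The neighbours of Nrg4 were higher in 9 of 12 in each region. Those of Erbb2 were higher in 26 of 37 in cortex with 1 lower, and those of Erbb3 in 29 of 56 with 5 lower, although Erbb2 and Erbb3 were not called. Erbb4 has no window within 500 kb, Nrg1 has 1 and Nrg3 has 2, of which 0 were called in CeA and 1 each was lower in cortex. In the fit without the 4 libraries at odds with their labelled sex, the neighbours called lower were 8 of 8 for Btc and 9 of 9 for Egfr in cortex, and 5 of 8 and 0 of 9 in CeA. Those called higher were 18 of 20 for Nrg2, 36 of 38 for Hbegf, 8 of 12 for Nrg4, 20 of 37 for Erbb2 and 17 of 56 for Erbb3 in cortex, and 5 of 20 for Nrg2, 27 of 38 for Hbegf and 4 of 12 for Nrg4 in CeA. Overlapping windows in these counts share reads.

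**Figure D5:**
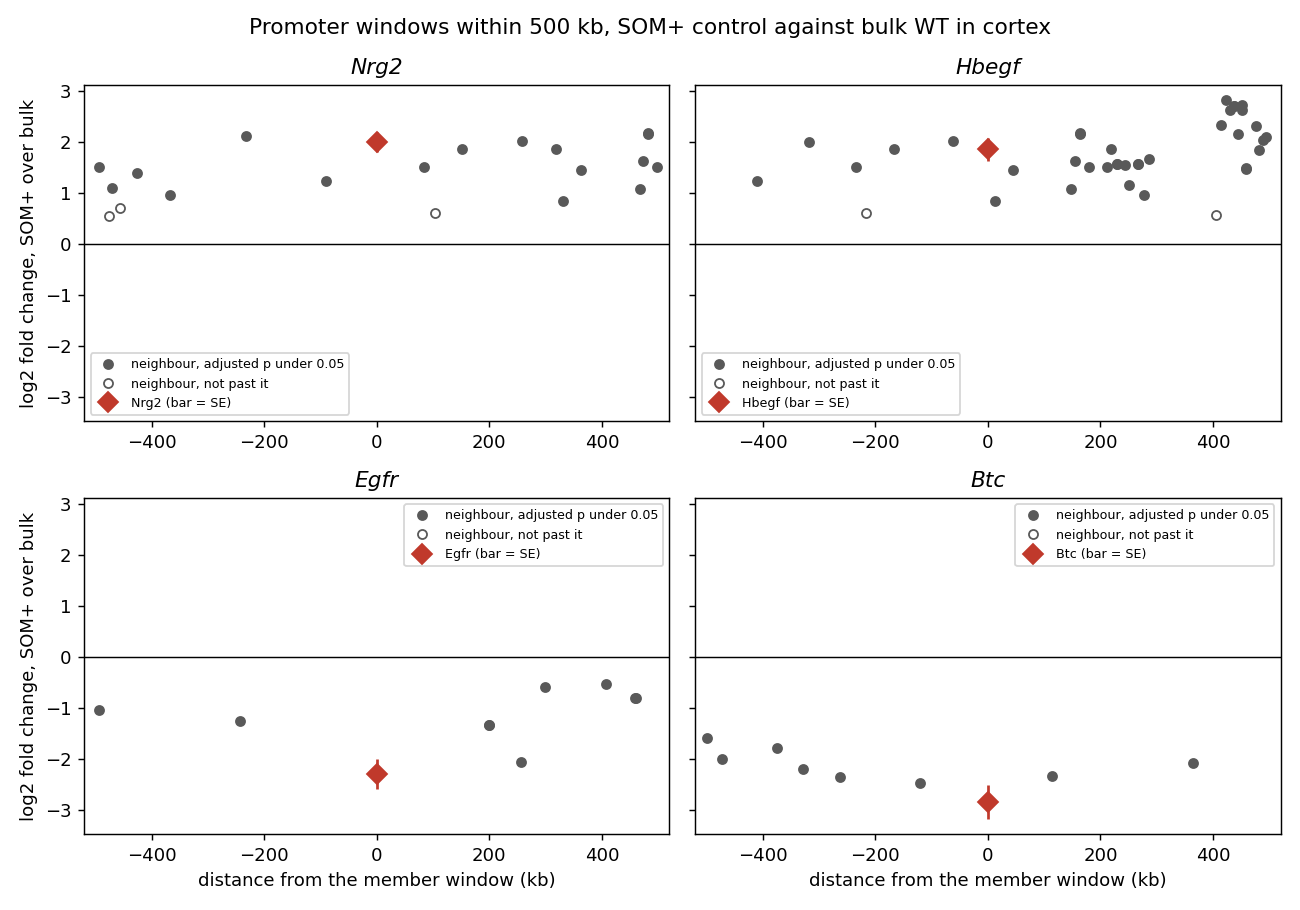
Log2 fold change of SOM+ control over bulk WT in cortex for the promoter windows within 500 kb of Nrg2, Hbegf, Egfr and Btc, by distance from the gene's own window in kb; filled points passed an adjusted p of 0.05, and the diamond is the gene with its standard error. Neighbours of Nrg2 and Hbegf lie above 0 and those of Egfr and Btc below 0. Nrg2 and Hbegf are each among the neighbours of the other.

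The windows most like each member over the 18 libraries were ranked by Pearson's r of log2 CPM among 20875 genes, as a description, since the libraries share groups, sorts and regions. For Erbb4 they were Magi1 (0.945), Thbs1 (0.937) and Pou4f2 (0.937), for Egfr Shcbp1 (0.984), Mcm3 (0.978) and C1qtnf7 (0.975), and for Btc Srfbp1 (0.983), Zmat1 (0.980) and Slc35a5 (0.979). For Nrg2 they were Ssh2 (0.991), AA415398 (0.989) and Nat8l (0.986), and for Hbegf Dpp8 (0.986), Rhot1 (0.986) and Fam57a (0.985). Nrg4 was most like Fbxo46 (0.930), Nrg3 like Enoph1 (0.913), Erbb2 like Apol9b (0.897), Nrg1 like Tspyl4 (0.896) and Erbb3 like Ccl8 (0.841).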

How the data were processed

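ATAC-seq libraries were made from 50000 sorted nuclei each, in 8 groups. The deposited values were raw read counts per promoter window, 1 column per library, not normalized by the authors. The submitters' processing notes name build mm9, Trimmomatic 0.32 and bcl2fastq 2.16.0.10, with Picard 1.88, MACS2 and Bowtie2. The counting program, strand setting, treatment of duplicates and Tn5 offset were not stated in the sources used here. The analysis was of promoter windows alone, so totals are promoter counts and not sequencing depth. Of 26728 entries, 663 that repeated a window were left out.

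Groups came from the sample titles and characteristics. Counts were scaled by TMM and tested with the quasi-likelihood F test of edgeR 4.0.16 under R 4.3.3, after filterByExpr by group (minimum count 10, minimum total 15), in fits over the 8 SOM+ libraries (25157 windows, 4 residual degrees of freedom), the 10 bulk libraries (25196, 5) and all 18 (25246, 9). The last 2 fits held the labelled sex. The SOM+ fit held no sex term, since the labelled sex goes with the replicate number there. The spread was pooled over the groups of a fit and moderated over all windows. In the SOM+ fit a window's own spread then carried almost no weight. The p-values and intervals of single members there do not reflect the spread of their own replicates. Standard errors were derived as the size of the log2 fold change over the square root of F, and intervals were built from them. Benjamini-Hochberg adjustment ran over all windows of a comparison, with calls at 0.05. All 10 members passed the filter in each fit. Alternatives were other scalings, DESeq2 1.42.0, limma 3.58.1 after cyclic loess, no filter, other sex terms, the replicate number as a block and each library left out. The fits were first run on simulated counts. These held no sex effect, no exchanged labels and no shared animals, so such features of the data were not tested.

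The members and the gene lists were chosen with earlier results of these data known. Named pathway genes are up to 3 per direction and comparison, called with the smallest p among those whose libraries do not overlap. Likeness was taken on log2 CPM (prior count 2), leaving out members, predicted genes and overlapping windows. Of 24361 gene names, 23249 were in the RefSeq gene table, the members' 10 names included.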

Additional observations from a re-analysis of the deposited data

Results flagged for a closer look

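The difference between SOM+ control and bulk WT nuclei was itself unlike in CeA and cortex for 6 members, by edgeR's interaction test. CeA minus cortex, it was 1.14 log2 for Egfr, 1.03 for Nrg1, -0.92 for Nrg2, 0.84 for Nrg3, 1.41 for Btc and -1.26 for Hbegf. After leaving out the 4 libraries at odds with their labelled sex and the sex term, 0 of these passed the threshold, with values of 1.28, 1.29, -0.95, 0.99, 1.80 and -1.02 in the same order, and the share of all windows called fell from 24.7% to 9.54%.

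Y-linked promoters were read in 2 bulk libraries labelled female, at 43.2 CPM in CeA bulk WT replicate 1 and 99.4 CPM in cortex bulk WT replicate 1. The 4 SOM+ libraries labelled female had 0 Y-linked counts.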

How the results depend on the processing

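Of 130 values for single members (10 members in 13 comparisons), 26 were called. The alternatives gave 1929 values for all 130 together, most of which belong to values that were not called. Among them, 0 had a direction opposite to the main fit where either fit made a call. Counts of members called that moved by over 1.5 times were these. Leaving out the 4 libraries at odds with their labelled sex together with the sex term, chosen after the data were seen, gave 2 instead of 4 for SOM+ control against bulk WT in CeA, 0 instead of 6 for the region difference, and 0 instead of 2 for CeA against cortex in bulk nuclei, while the share of all windows called fell from 23.2% to 7.72%, from 24.7% to 9.54% and from 16.9% to 2.56%. With the labelled sex kept as a term and these libraries left out, also chosen after the data were seen, the counts were again 2 and 0 for the first 2. All bulk libraries then left are labelled male. The Y-linked promoter level in place of the labelled sex gave 3 for the region difference and 1 for bulk CeA against cortex, and the fit with no sex term also gave 1 for the latter. CeA against cortex in SOM+ nuclei went from 7 to 4 with DESeq2 and with limma after cyclic loess. With each library left out in turn, the counts ran from 2 to 4 (SOM+ control against bulk WT in CeA), 5 to 7 (in cortex), 1 to 3 (their region difference), 4 to 6 (CeA against cortex in SOM+ nuclei), 0 to 5 (in bulk nuclei) and 0 to 1 (KO in cortex). They were 0 in every such fit of fear conditioning and of KO in CeA, over both regions and as a region difference. An arm left with 1 library is assumed to vary like the other groups. Scaling by library totals moved the median of all windows to -0.22 in CeA and -0.31 in cortex for SOM+ against bulk and to 0.13 for bulk CeA against cortex. The filter on low counts changed no count by over 1.5 times. Depth limits low windows most: Nrg4 rested on 15 to 40 counts in bulk libraries.

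Replicate numbers were taken as a block in an added fit. The replicate block gave 4, 7, 6, 7 and 3 members called in the 5 comparisons of sort and region, the last against 2 without it because Nrg2 was called between CeA and cortex bulk nuclei (0.40, adjusted p = 0.0458), and 0 for fear conditioning and KO. Libraries share a number and no stated animal or batch, although in SOM+ groups the number goes with the labelled sex. The 4 libraries at odds with their labelled sex also carry the same numbers in both regions. Same-numbered libraries deviated from their group means with correlations of -0.01 (fear and control, CeA), 0.19 (fear and control, cortex), -0.20 and -0.33 (KO and WT, CeA), 0.41 and -0.22 (KO and WT, cortex), 0.13 (control, CeA and cortex), 0.04 (fear, CeA and cortex), -0.19, 0.26 and 0.02 (KO, CeA and cortex) and 0.38 (WT, CeA and cortex).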
